A study of Homo sapiens with 2 samples.

Results

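Retinoic acid is made from vitamin A by successive oxidations, and its level in a cell depends on carriers, on enzymes that make it and on enzymes that destroy it. Retinol dehydrogenases and retinal reductases interconvert retinol and retinal, ALDH1A dehydrogenases oxidise retinal irreversibly to retinoic acid, and CYP26 hydroxylases break retinoic acid down. Inside the cell CRABP1 and CRABP2 bind retinoic acid, and RBP4 carries retinol in plasma. The genes described here are these carriers and enzymes: CRABP1, CRABP2, RBP4, RDH11, ALDH1A1, ALDH1A2, ALDH1A3, CYP26A1 and CYP26B1, 9 of the 25343 rows of the deposited table, each found by its symbol. They were chosen by their CPM in the ENZR and Con libraries, which were known beforehand, so those values are a description and carry no test.

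RNA was sequenced from C4-2B, an established human prostate cancer subline derived from LNCaP by way of C4-2, which grows without androgens. The group C4-2B ENZR is resistant to enzalutamide, an antiandrogen drug, and was kept in RPMI medium with 10% serum and 20 µM of the drug (n = 1 library, 23479051 reads in genes). The group C4-2B Con is sensitive to the drug and was kept in parallel in the same medium with DMSO, the solvent (n = 1 library, 21024484 reads). The sample titles carry the suffix shC, whose meaning is not given. Each group is 1 library of 1 line, so resistance, the drug in the medium and differences between cultures cannot be told apart, and no value below has a replicate.

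Levels are in TMM-normalized CPM, that is reads per 1000000 reads of the library after a scaling step meant to make libraries comparable. One read was worth 0.0404 CPM in ENZR and 0.0490 CPM in Con. A ratio is ENZR over Con, and the interval given with it is an exact 95% interval (Clopper-Pearson) that covers counting error only. All 9 luminal prostate markers looked up were above 1 CPM in both libraries and summed to 3200 CPM in ENZR and 3430 CPM in Con. KRT8, for example, stood at 340 CPM in ENZR and 268 CPM in Con. The 4 basal markers summed to 0.121 CPM in ENZR and 0.392 CPM in Con. Of these KRT5 and TP63 had 0 reads in both libraries, KRT14 had 1 read in ENZR and 8 in Con, and KRT15 had 2 in ENZR and 0 in Con. The leukocyte marker CD3E had 0 reads in both libraries. The 6 stromal markers summed to 47.4 CPM in ENZR and 20.8 CPM in Con, most of it COL1A1, while COL1A2 had 0 reads in both. LUM, another of the 6, had 32 reads in ENZR and 0 in Con, 8.8-fold higher if Con is set to a floor of 3 counts. Ratios against this floor leave out the counting error of the ENZR reads. The 4 endothelial markers summed to 5.22 CPM in ENZR and 10.7 CPM in Con, with CDH5 at 0 in both, and the 5 leukocyte markers to 10.1 CPM in ENZR and 16.2 CPM in Con, mostly CD68. The part of such cells in the values below was not tested.

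The comparison asks which carriers and enzymes of retinoids differ between the resistant line and its sensitive counterpart. CRABP1 and CYP26B1, a carrier and a hydroxylase of retinoic acid, were abundant enough to measure in ENZR and close to absent in Con. RDH11 and ALDH1A3 were well measured in both libraries and differed by less than 2-fold. The other 5 genes stayed below a mean of 1 CPM over the libraries, and ALDH1A2 had no read in either. Only 4 of the 9 genes averaged 1 CPM or more, and 2 of these, CRABP1 and CYP26B1, did so through ENZR alone. With 1 CPM added to each value, 2 of the 4 were higher by 2-fold or more in ENZR. Of all 13803 genes that averaged 1 CPM, 6.69% were. None of the 4 was lower by 2-fold or more, as 4.64% of all genes were.

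**Figure D1:**
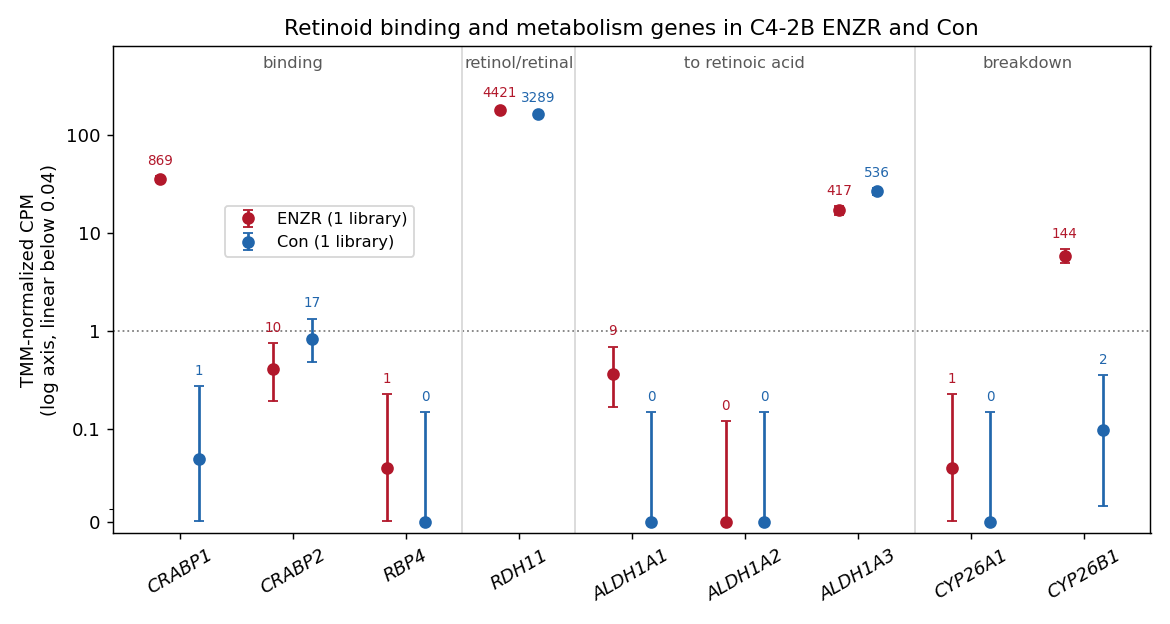
Level of each of the 9 genes in the ENZR library (red, left point) and the Con library (blue, right point), in TMM-normalized CPM on a log axis that is linear below 0.04. Bars are exact 95% Poisson intervals of the read count, or the floor of 3 counts where the count is 0, the printed numbers are reads, and the dotted line marks 1 CPM. CRABP1 has 869 reads in ENZR and 1 in Con, and CYP26B1 has 144 in ENZR and 2 in Con.

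CRABP1, the first of the cellular retinoic acid binding proteins, had 869 reads in ENZR, or 35.1 CPM, against 1 read in Con, or 0.0490 CPM. The ratio was 717, but with a single read in Con its interval ran from 128 to 28400. After 1 CPM was added to both values the log2 ratio was 5.11, and this was the 12th highest of the 13803 genes. Per kilobase of its principal transcript, which is 772 bases long, CRABP1 stood at 45.5 CPM in ENZR and 0.0635 CPM in Con.

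CRABP2, which hands retinoic acid to its nuclear receptors, was scarce in both libraries. It had 10 reads in ENZR, or 0.404 CPM, and 17 reads in Con, or 0.833 CPM. The ratio was 0.486 with an interval of 0.199 to 1.12, so a difference was not detectable at this depth. CRABP1 therefore took 98.9% of the 879 reads of the pair in ENZR (exact 95% binomial interval 97.9 to 99.5). It took 5.56% of the 18 reads of the pair in Con (0.141 to 27.3). These are shares of reads from transcripts of unequal length, not shares of molecules. RBP4, the plasma carrier of retinol, had 1 read in ENZR and 0 in Con, which is too few for a ratio. A count of 0 allows up to 0.121 CPM in ENZR and 0.147 CPM in Con, as 3 counts of the library.

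RDH11, a short-chain reductase that interconverts retinal and retinol and was described as an androgen-regulated enzyme of prostate epithelium, was the most abundant of the 9 genes in both libraries on the CPM per kilobase scale. It had 4421 reads in ENZR, or 179 CPM, and 3289 reads in Con, or 161 CPM. The ratio was 1.11 (1.06 to 1.16). An interval that leaves out 1 does not set a gene apart here, since 71.2% of all genes had one. Per kilobase RDH11 stood at 69.1 CPM in ENZR and 62.3 CPM in Con. On that scale CRABP1, at 45.5 CPM in ENZR and 0.0635 CPM in Con, came next after RDH11 in ENZR, whereas in Con ALDH1A3 did, at 6.69 CPM per kilobase against 4.3 in ENZR.

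Of the 3 dehydrogenases that oxidise retinal to retinoic acid, ALDH1A3 was the one with appreciable levels. It had 417 reads in ENZR, or 16.9 CPM, and 536 reads in Con, or 26.3 CPM. The ratio was 0.642 (0.564 to 0.731), a log2 ratio of -0.61 after adding 1 CPM, short of a 2-fold difference. ALDH1A1, widely used as a marker of stem-like tumour cells, had 9 reads in ENZR, or 0.364 CPM, and 0 reads in Con. Against the floor of 3 counts in Con this was 2.48-fold higher, with the counting error of the 9 reads left out. ALDH1A2, the main retinal dehydrogenase of the embryo, had 0 reads in both libraries. ALDH1A3 thus gave 97.9% of the 426 ALDH1A reads in ENZR (96 to 99) and all 536 in Con.

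The CYP26 hydroxylases, which clear retinoic acid, differed from each other. CYP26B1 had 144 reads in ENZR, or 5.82 CPM, and 2 reads in Con, or 0.0980 CPM. The ratio was 59.4 with a wide interval of 16.2 to 495, and the log2 ratio after adding 1 CPM was 2.64, the 122nd highest of all genes. CYP26A1, a classical gene that retinoic acid itself induces, had 1 read in ENZR and 0 in Con. CYP26B1 stood at 1.23 CPM per kilobase in ENZR and 0.0207 in Con, and CYP26A1 at 0.0190 in ENZR and 0 in Con. CYP26C1, the remaining member of the family and the neighbour of CYP26A1 in the genome, had 0 reads in both.

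**Figure D2:**
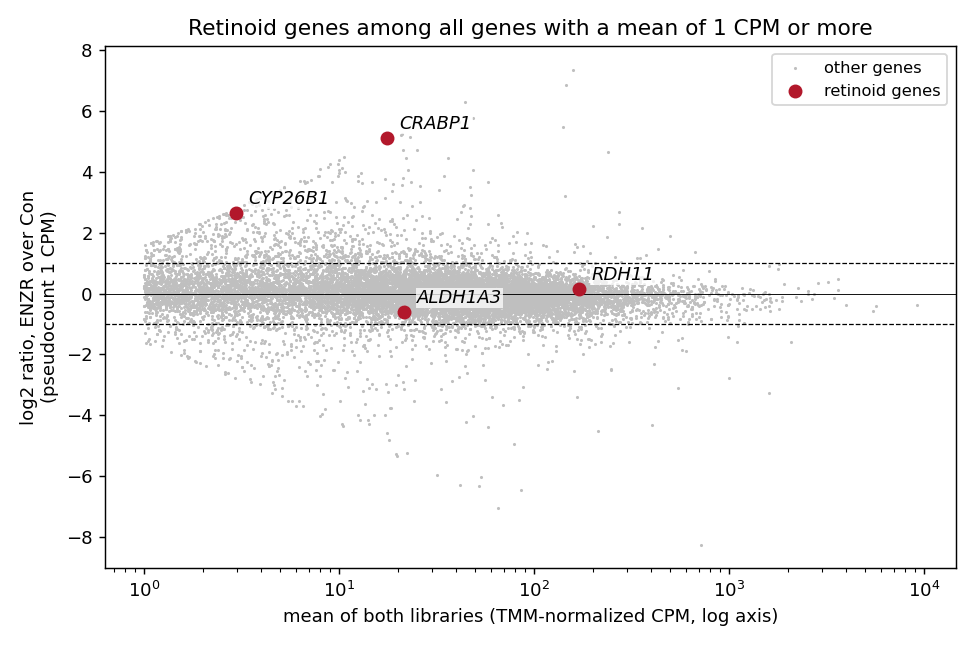
Log2 ratio (ENZR over Con, 1 CPM added to both), against the mean of both libraries in TMM-normalized CPM on a log axis, for the 13803 genes that average at least 1 CPM (grey) and the 4 retinoid genes among them (red). Dashed lines mark 2-fold. CRABP1 lies at 5.11 and CYP26B1 at 2.64, while RDH11 at 0.15 and ALDH1A3 at -0.61 lie between the dashed lines.

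The promoters of the 2 genes that were higher in ENZR are printed with that of CYP26A1, whose promoter carries a well known retinoic acid response element, to set the letters of the higher genes beside those of a gene that stayed at 1 read and 0 reads. The sequences are those of RefSeq on GRCh38.p14, from 250 bases before to 50 bases after the transcript start, and capitals mark the half-sites that receptors of retinoic acid bind on either strand, in the form AGGTCA, the related form AGTTCA, the form GGGTCA or the form GGTTCA. The CRABP1 window is chr15:78340103-78340402 on the + strand, that of CYP26B1 is chr2:72147813-72148112 on the - strand, and that of CYP26A1, the downstream one of its pair of starts, is chr10:93073643-93073942 on the + strand.
CRABP1 promoter: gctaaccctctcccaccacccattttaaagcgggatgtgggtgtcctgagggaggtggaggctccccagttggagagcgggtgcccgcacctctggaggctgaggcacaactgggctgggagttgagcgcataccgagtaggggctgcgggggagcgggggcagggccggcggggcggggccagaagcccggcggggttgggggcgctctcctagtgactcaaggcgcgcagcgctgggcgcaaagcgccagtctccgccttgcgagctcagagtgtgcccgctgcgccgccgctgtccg
CYP26B1 promoter: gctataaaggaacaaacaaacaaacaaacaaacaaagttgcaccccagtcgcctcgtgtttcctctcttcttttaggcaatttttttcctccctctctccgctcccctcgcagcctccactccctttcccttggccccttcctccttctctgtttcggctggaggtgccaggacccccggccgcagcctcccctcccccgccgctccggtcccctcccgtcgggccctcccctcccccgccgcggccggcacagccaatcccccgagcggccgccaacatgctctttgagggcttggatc
CYP26A1 promoter: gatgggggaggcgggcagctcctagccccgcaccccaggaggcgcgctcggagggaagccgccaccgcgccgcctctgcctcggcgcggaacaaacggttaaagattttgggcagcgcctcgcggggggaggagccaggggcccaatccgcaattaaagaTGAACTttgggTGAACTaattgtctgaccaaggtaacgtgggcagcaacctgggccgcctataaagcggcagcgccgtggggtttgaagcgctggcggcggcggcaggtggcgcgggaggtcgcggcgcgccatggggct

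The CYP26A1 window held 2 half-sites of the form AGTTCA on the opposite strand, 5 bases apart, from -90 to -74 relative to the start. Such a direct repeat with a spacer of 5 bases was present in 31 of 35116 promoter windows, or 0.0883%. The windows of CRABP1 and CYP26B1 held no half-site in any arrangement. At least 1 half-site was found in 38.6% of all windows and in 3 of the 13 windows of the 9 genes. The other hits were single half-sites in CRABP2 and in an internal start of ALDH1A2, and repeats spaced by 1 or 2 bases, found in 0.131% and 0.0399% of all windows, were in none of the 13. The CRABP1 window had 25 CpG dinucleotides and that of CYP26B1 19, against a median of 14 over all windows. Fewer than in CRABP1 were found in 68% of all windows, and fewer than in CYP26B1 in 57.1%. Over the 13 windows the number ran from 1, at the internal start of ALDH1A2, to 46 in ALDH1A3, and the printed CYP26A1 window had 32. These letters describe short windows and do not bear on sites elsewhere.

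The genes next to CRABP1 did not differ in step with it. WDR61, on one side, stood at 68.1 CPM in ENZR and 75 CPM in Con, and IREB2, an iron-regulatory RNA-binding protein on the other, at 200 CPM in ENZR and 161 CPM in Con, ratios of 0.907 and 1.25. Beside CYP26B1, EXOC6B, an exocyst subunit, stood at 10.6 CPM in ENZR and 7.05 CPM in Con, a ratio of 1.5 (1.22 to 1.85), and DYSF had 12 reads in ENZR and 5 in Con. Beside ALDH1A3, which was lower in ENZR, LRRK1 was 3.13-fold higher (1.98 to 5.13, 91 reads in ENZR and 24 in Con) and ASB7 stood at 30.2 CPM in ENZR and 30.7 CPM in Con, a ratio of 0.983 that became 1.07 with the TMM scaling undone. VTI1B, next to RDH11, had a ratio of 1.12 (1.04 to 1.2), and the paralog RDH12 on its other side had 15 reads in ENZR and 4 in Con. Around the scarce members, NES, which encodes nestin and lies beside CRABP2, was 2.03-fold higher at 232 CPM in ENZR and 114 CPM in Con. Of the others ISG20L2, POLR2M and MYOF had ratios of 1.19, 0.858 and 1.70, that of MYOF with an interval of 0.911 to 3.31. ANXA1, next to the scarce ALDH1A1, had 11 reads in ENZR and 0 in Con, and is named after its values were seen.

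**Figure D3:**
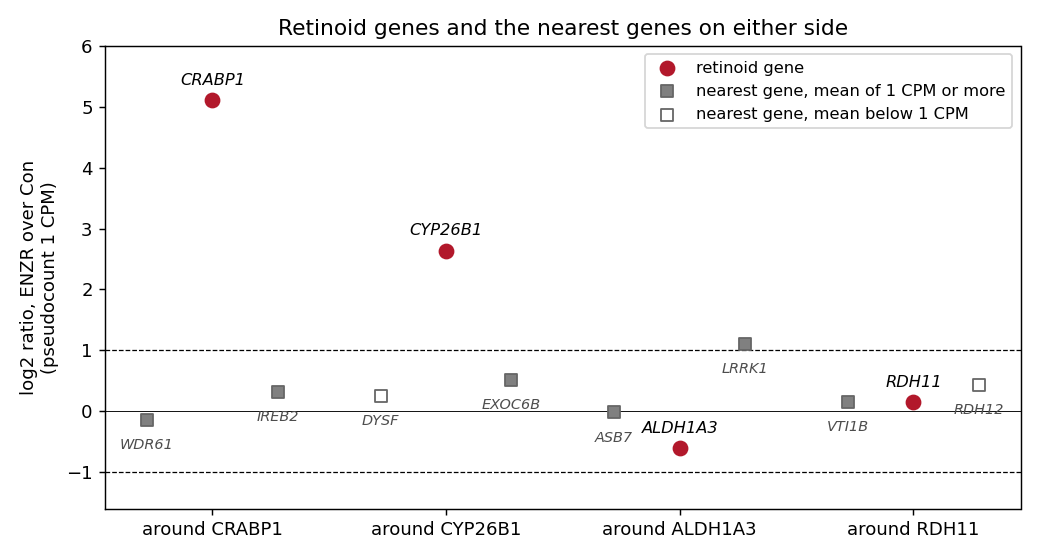
Log2 ratio (ENZR over Con, 1 CPM added to both) for CRABP1, CYP26B1, ALDH1A3 and RDH11 (red circles) and for the nearest gene on each side that is in the table (squares, open where the mean is below 1 CPM). Dashed lines mark 2-fold. CRABP1 at 5.11 and CYP26B1 at 2.64 stand above their neighbours, which lie between -0.14 and 0.52.

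Reads of 50 bases were sequenced, so windows of that length were looked up in all other GENCODE transcripts. Outside its own locus 0 of the 723 windows of CRABP1 occurred in another gene, and none of the 4683 of CYP26B1 did. In the CRABP1 locus 35.8% of the windows overlap AC011270.2, a transcript model on the other strand, and 36.1% of those of ALDH1A3 overlap AC015712.2 in the same way. Without strand, reads of such overlapping genes cannot be told apart. RDH11 shares 11.7% of its windows with an overlapping model on its own strand.

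Of the other genes of the pathway and of the protein families, 43 of 91 averaged at least 1 CPM. In ENZR 5 of the 43 were higher by 2-fold or more, as 6.69% of all genes were, and 6 were lower by as much, as 4.64% of all genes were. Of the 5 higher genes, RBP7 and CYP2S1, described below, averaged 1 CPM through ENZR alone. The median log2 ratio of the 43 was -0.21 beside -0.006 over all genes. The nuclear receptors that retinoic acid acts through were present in both libraries. RARA stood at 34.7 CPM in ENZR and 27.7 CPM in Con (ratio 1.25, 1.12 to 1.39), and RARG at 56.9 CPM in ENZR and 37.5 CPM in Con (1.52, 1.39 to 1.66). RARB, itself a gene that retinoic acid induces, was at 1.29 CPM in ENZR and 3.53 CPM in Con, from 32 reads in ENZR and 72 in Con, a ratio of 0.367 (0.234 to 0.564). Its log2 ratio of -0.98 after adding 1 CPM fell just short of 2-fold. Among their partners RXRA was at 101 CPM in ENZR and 166 CPM in Con (0.612, 0.581 to 0.644). RXRG had 11 reads in ENZR and 0 in Con, 3.03-fold higher against the floor, with the counting error of the 11 reads left out. RXRB was at 43.2 CPM in ENZR and 45.7 CPM in Con, with an interval of 0.865 to 1.03 that includes 1 and a ratio that went above 1 with the TMM scaling undone. Of the 12 receptors and cofactors measured, whose median log2 ratio was 0.19, 1 was lower by 2-fold or more and 1 higher by as much, close to the 4.64% and 6.69% of all genes. The coactivator NCOA1 was lower, at 51.3 CPM in ENZR and 127 CPM in Con, and NRIP1, a corepressor that retinoic acid induces, was 2.13-fold higher (1.97 to 2.30).

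Among carriers outside the 9 genes, RBP7, a cellular retinol binding protein of the same family as CRABP1, had 153 reads in ENZR, or 6.19 CPM, and 5 reads in Con, or 0.245 CPM. The ratio was 25.3 (10.6 to 78.9). RBP5 was at 6.47 CPM in ENZR and 5.24 CPM in Con with an interval of 0.960 to 1.59. RBP7 and RBP5 were the 2 lipid-binding proteins of this family, besides CRABP1, that averaged at least 1 CPM. STRA6, the membrane receptor for RBP4, had 2 reads in ENZR and 1 in Con. Of 8 measured enzymes that interconvert retinol and retinal, 1 was at least 2-fold higher and none 2-fold lower after adding 1 CPM. Of all genes 6.69% were higher and 4.64% lower by as much. The higher enzyme was DHRS3, a retinal reductase that retinoic acid induces, at 21.5 CPM in ENZR and 8.13 CPM in Con (2.65, 2.22 to 3.17). RDH16, at 1.54 CPM in ENZR and 3.23 CPM in Con, had a ratio of 0.475 (0.31 to 0.719) before 1 CPM was added. RDH10, the main retinol dehydrogenase of retinoic acid synthesis, was at 20.6 CPM in ENZR and 15.8 CPM in Con (1.3, 1.13 to 1.5). The median log2 ratio of the 8 enzymes was -0.22, with 3 above 0 and 5 below.

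Of 4 measured genes of retinyl ester and carotenoid handling, 2 were lower by 2-fold or more, as 4.64% of all genes were. DGAT1 and PNPLA4, at log2 ratios of -0.78 and -0.34, did not reach 2-fold, and the median of the 4 was -0.91 beside -0.006 over all genes. LPL, a lipase that also frees retinol from circulating esters, was at 3.52 CPM in ENZR and 35.5 CPM in Con, and SCARB1, a lipoprotein receptor that takes up carotenoids, at 97.9 CPM in ENZR and 202 CPM in Con. LRAT, which makes retinyl esters, had 16 reads in ENZR and 13 in Con. Beyond the CYP26 family, CYP2S1, a P450 reported to oxidise retinoic acid, was at 6.19 CPM in ENZR and 0.441 CPM in Con, a ratio of 14.0 (7.20 to 31.3). CYP1B1, the only other gene of that list that averaged 1 CPM, went the other way. It was at 2.43 CPM in ENZR and 5.19 CPM in Con (0.467, 0.335 to 0.647), a log2 ratio of -0.85 after adding 1 CPM. Among 12 other aldehyde dehydrogenases, ALDH2, which clears acetaldehyde, was 3.08-fold higher (84.4 CPM in ENZR and 27.4 CPM in Con), and ALDH3B2 was at 25.8 CPM in ENZR and 91.1 CPM in Con. These were the 2 of the 12 that passed 2-fold, as 11.3% of all genes did in either direction, and the median was -0.15.

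**Figure D4:**
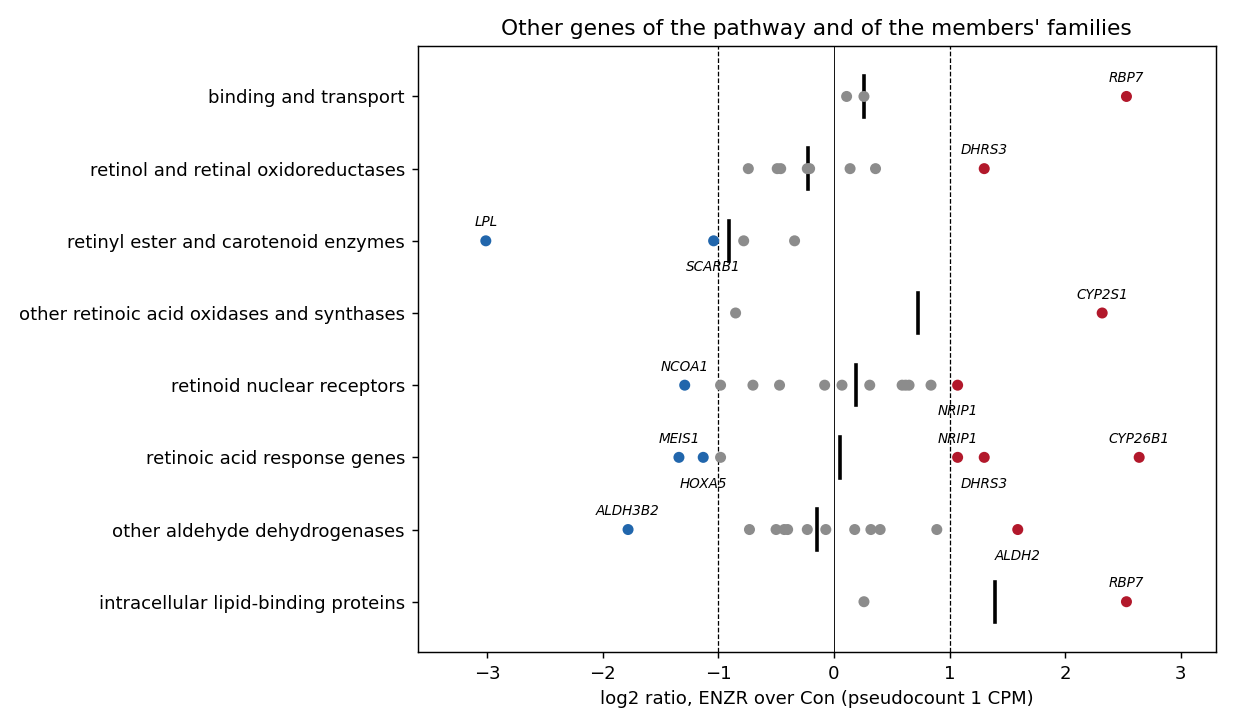
Log2 ratio (ENZR over Con, 1 CPM added to both) for each gene that averages at least 1 CPM in 8 lists around the retinoid genes, with genes higher by 2-fold or more in red and those lower by 2-fold or more in blue. Black bars are list medians, some genes are in more than 1 list, and the response genes include CYP26B1. Named genes lie on both sides of 0, from LPL at -3.01 to CYP26B1 at 2.64.

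Textbook genes induced by retinoic acid went both ways. Of 20 such genes 6 averaged at least 1 CPM, CYP26B1 among them. CYP26B1, DHRS3 and NRIP1 were higher in ENZR by 2-fold or more, as 6.69% of all genes were. CYP26B1 is one of the 9 genes chosen by these values and averaged 1 CPM through ENZR alone. MEIS1 and HOXA5, developmental transcription factors, were lower by 2-fold or more, as 4.64% of all genes were. MEIS1 had 29 reads in ENZR and 92 in Con (0.260, 0.165 to 0.399), and HOXA5 28 reads in ENZR and 75 in Con (0.308, 0.192 to 0.481). The median of the 6 was 0.05, but -0.04 with 0.5 CPM added in place of 1 CPM, 0.29 with 5 CPM added and 1.19 over the 2 genes that averaged at least 5 CPM. RARRES1, a gene named for its response to retinoids, had 0 reads in both, and CRABP2 and CYP26A1 also belong to the genes below 1 CPM.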

How the data were processed

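RNA of 1 C4-2B ENZR and 1 C4-2B Con library was sequenced as single reads of 50 bases, per the labels' protocols. The deposited table gives 1 signal value per gene and library, TMM-normalized CPM by its own name. Per the submitters' processing notes, hg19 is the build named and edgeR, RSEM 1.2.15 and Bowtie2 2.1.0 were among the tools, with no role named. Annotation and strandedness: not given in the sources used here. Each deposited value was a whole multiple of 1 step (100% of values within 0.01 reads), so reads were recovered, which RSEM may have estimated and the authors rounded. With 1 library per group edgeR has no residual spread to test with, so no test was run.

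Log2 ratios used a pseudocount of 1 CPM and genes that averaged at least 1 CPM (SciPy 1.17.1). The calculation was checked on simulated reads. Log2 ratios understate low genes. The members and lists were chosen with earlier results of these data known. Named are the 9 genes, the RAR and RXR receptors, list genes past 2-fold and those nearest neighbours that averaged at least 1 CPM; genes named beside them serve as context and were chosen after their values were seen. Lengths are of principal transcripts in GENCODE release 29, and promoters and gene order come from RefSeq, with all 9 genes matched. The files' build differs, so reference coordinates are used only for printed promoters, gene order and overlapping loci. Protein identity within the families was planned and not analysed here. Alternatives changed the pseudocount, the filter and the scaling.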

Additional observations from a re-analysis of the deposited data

How the results depend on the processing

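The direction of each ratio of the 5 retinoid genes with reads in both libraries was the same under every scaling tried. All these scalings raised the ratios, so only CRABP2 and ALDH1A3, which were below 1, could have changed direction. Adding the same CPM to both libraries cannot change a direction. The count of 2 higher genes fell to 1 when a mean of 5 CPM was required, because CYP26B1 is below it, and that of the other pathway genes to 3 (5 in the report). With no filter 7 of these were higher. The count of lower pathway genes, 6 in the report, became 7 with 0.5 CPM added. It became 4 with 5 CPM added or at a mean of 5 CPM. With the TMM scaling undone 6 pathway genes were higher and 5 lower, so which count was larger depended on the setting. Over all genes 923 were higher and 641 lower by 2-fold or more, but 447 and 371 with 5 CPM added, and 577 were higher at a mean of 5 CPM. Adding 5 CPM gave a ratio of 7.95 for CRABP1 and 2.12 for CYP26B1, so their size rests on the 1 and 2 reads in Con, whereas undoing the TMM scaling gave 778 and 64.5. That step raised every ratio by a factor of 1.08 and moved the median log2 ratio of all genes to 0.103. RDH11 then had a ratio of 1.2, above its counting interval, and the ratios of RXRB and ASB7 went above 1, to 1.03 and 1.07. The median of the response genes ran from -0.04 with 0.5 CPM added to 1.19 at a mean of 5 CPM. No paired analysis was possible because each group has 1 library.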

Other observations

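Some genes below the mean of 1 CPM, chosen after their values were seen, had unequal reads in ENZR and Con. SDR16C5, a retinol dehydrogenase, had 31 reads in ENZR and 1 in Con, a ratio of 25.6 (4.26 to 1040). ALDH3A1, an aldehyde dehydrogenase of epithelia, had 15 reads in ENZR and 1 in Con (12.4, 1.90 to 521), whereas ALDH1L1 had 2 reads in ENZR and 14 in Con (0.118, 0.0130 to 0.513). These values have no replicate.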
